A study of Danio rerio with 18 samples.

Results

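In order to determine which chromatin was accessible in one liver cell type and not in the other under normal conditions, the ATAC-seq peaks of hepatic stellate cells (HSCs) were compared with those of hepatocytes (HEPs), both from control zebrafish. The HSC control list held 55293 peaks and the HEP control list 41563, together 96856 of the 308216 peaks in the 6 lists of the series. A peak that no peak of the other list overlapped by at least 1 bp was called specific, and the remaining peaks were called shared. By this rule 17087 peaks were HSC-specific and 3227 were HEP-specific.

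HSCs were EGFP-positive cells of the line Tg(hand2:EGFP), in which the hand2 promoter drives the reporter, and HEPs were dsRed-positive cells of the line Tg(fabp10a:dsRed), in which the fabp10a promoter does. Both lines had the AB background, and the fish were adult females injected into the abdomen with sterile water 6 times in 2 weeks. In other places the study names saline for the controls. The control injection is called water here. Each group had 3 libraries of 60000 sorted cells. Other groups of the series were endothelial cells (ECs; mCherry under the kdrl promoter, line Tg(kdrl:ras-mCherry)) given water, and all 3 cell types given 500 mg/kg thioacetamide (TAA), a liver toxin, on the same schedule. Their 4 lists were used here only as places to look the control peaks up. Every cell type came from its own line, so cell type and line cannot be told apart. The ages of the fish and which fish went into which library are not given in the sources used here.

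The authors called peaks once per group, on its 3 libraries at once. Differences between the lists could therefore not be set against the spread between replicates, and no test was made. Read depth was unknown. Shares carry Wilson 95% intervals over peaks, a counting error that says nothing of the spread between fish.

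HEPs are the secretory and metabolic cells of the liver. They make most plasma proteins, such as fibrinogen and complement, and break down amino acids, purines and drugs. HSCs lie between hepatocytes and sinusoidal endothelium, store vitamin A in lipid droplets, and become matrix-producing cells when the liver is injured. In ATAC-seq a transposase inserts adapters into DNA that is free of nucleosomes, so that peaks mark promoters, enhancers and other accessible sites. Promoters of widely used genes are open in most cell types, while distal sites differ more between cell types.

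Most accessible sites were common to both cell types. Of the HSC peaks 30.9% were specific (interval 30.5 to 31.3), against 7.76% of the HEP peaks (7.51 to 8.03). Because 37915 of 38391 overlaps joined 1 HSC peak to 1 HEP peak only, the shared peaks were nearly equal in number (38206 and 38336). The unequal shares thus largely restate the unequal list lengths. Why the HSC list was longer was not tested. The HSC list was longer by 13730 peaks, and its weakest 13730 peaks, none of which scored above 188, held 10181 of the HSC-specific peaks (59.6%).

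The score of a peak was the authors' measure of how strongly it stood above background, which depends on depth and was used only to order peaks within a list. When the HSC list was reduced to its best 41563 peaks by score, the specific shares became 16.6% in HSCs (6906 peaks; 16.3 to 17.0) and 16.3% in HEPs (6756 peaks; 15.9 to 16.6). The best 20000 peaks of each list gave 15.4% in HSCs (14.9 to 15.9) and 15.3% in HEPs (14.8 to 15.8). The best 10000 gave 15.6% and 15.5%. Nearly all overlaps paired a single HSC peak with a single HEP peak, so lists of equal length have nearly equal specific shares by construction. The closeness of the shares at these lengths, and the overlap of their intervals, therefore says nothing about the cell types. Of the 6756 HEP peaks that were specific at equal length, 3529 overlapped an HSC peak that the shortening had removed, while 3227 overlapped no HSC peak at any score.

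Specific peaks were the weaker ones. The median score was 168 for HSC-specific peaks and 561 for shared peaks of the HSC list. In the HEP list the medians were 133 for specific and 348 for shared peaks. Expressed as the position in the list, where 0% is the strongest peak, the median HSC-specific peak stood at 79.7% and the median shared peak at 35.0%, and in the HEP list these values were 86.9% and 46.4%. Only 138 HSC-specific peaks (0.808%) and 30 HEP-specific peaks (0.930%) stood within the strongest 30% of their own list.

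The share of specific peaks increased along the list without interruption in HSCs, from 7 of 5529 peaks in the strongest 10% step to 28.6% in the sixth and 81.7% in the last. In HEPs it was 2 of 4156 peaks in each of the first 2 steps, 4.04% in the sixth and 32.3% in the last. At equal length both lists followed nearly the same course. The strongest step held 1 HSC-specific and 3 HEP-specific peaks, and the last step was specific at 55.6% in HSCs (54.1 to 57.1) and 57.5% in HEPs (56.0 to 59.0). A site ranked high in one cell type was thus nearly always called in the other as well.

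**Figure D1:**
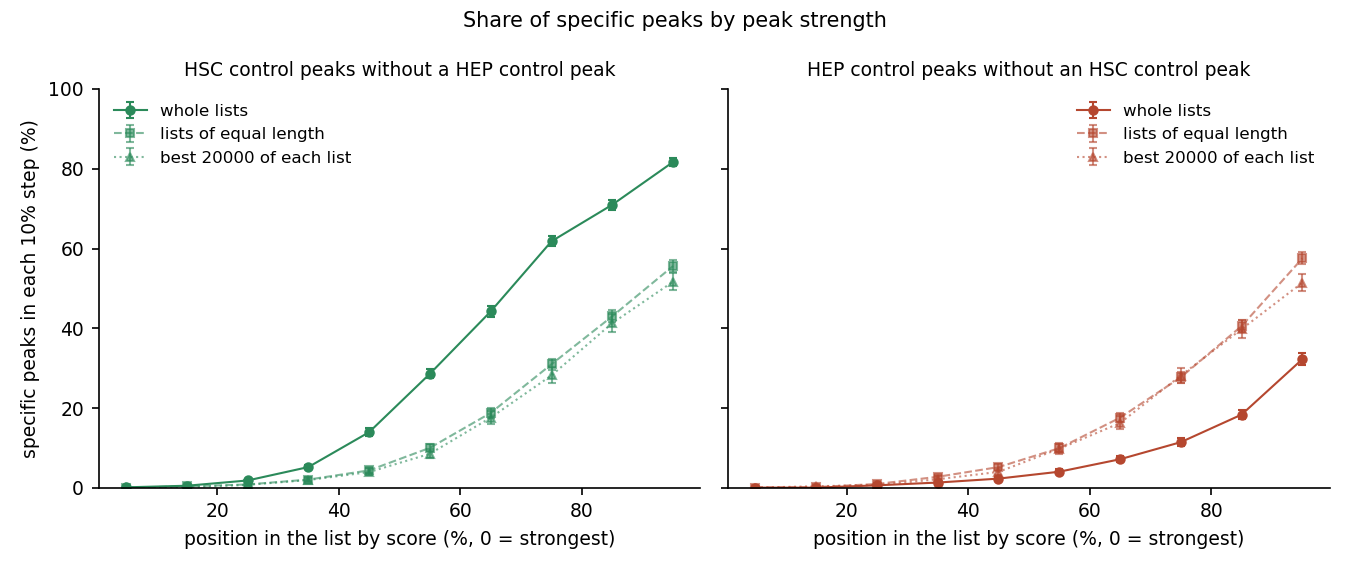
Share of HSC control peaks without a HEP peak (left) and of HEP control peaks without an HSC peak (right) in steps of 10% of each list ordered by score, for whole lists, lists of equal length and the best 20000 peaks; bars are Wilson 95% intervals over peaks. For whole lists the last step reaches 81.7% in HSCs and 32.3% in HEPs, and the curves for lists of equal length end at 55.6% and 57.5%.

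The best-scored HSC-specific peak lay at chr25:1343699-1343965 (GRCz11), was 267 bp wide and had the highest possible score, 3240. No HEP control peak overlapped it, but a peak was present there in the HEP TAA list, and in the HSC TAA, EC control and EC TAA lists too. The next 4 were weaker and more restricted. The peak at chr24:11138522-11138781 (score 1753) recurred only in the HSC TAA list. The peak at chr8:36282492-36282879 (score 1718) was found in the HSC TAA list and both EC lists, and the peak at chr4:20310491-20310772 (score 1689) in the HSC TAA and EC TAA lists. The peak at chr8:33539867-33540072 (score 1599) was in none of the 4 other lists. None of these 4 sites was therefore called in a HEP list.

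The best-scored HEP-specific peak lay at chr14:48328881-48329104, with a score of 1521 at position 6.71% of its list. It recurred in the HSC TAA list and both EC lists, but not in the HEP TAA list. The second, at chr5:19153761-19154043 (score 1478), was found in the TAA lists of all 3 cell types. Next came peaks at chr3:60320057-60320312 (score 968) and chr3:60405182-60405430 (score 933), and both were found in the HEP TAA list and not in the HSC TAA list. The second of these was called in the HEP lists alone. The fifth, at chr8:26185208-26185447 (score 804), recurred in both the HSC and the HEP TAA list. A further HEP-specific peak, at chr3:60310148-60310315 (score 663), also recurred in the HEP TAA and not the HSC TAA list. It lay nearer to the peak with a score of 968 than to the one with a score of 933. The genes at these sites are not named, because gene positions on GRCz11 were at hand for parts of chromosomes 1, 10 and 11 only.

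Specific peaks were also narrower. The median width was 137 bp (quartiles 111 and 165 bp) for HSC-specific peaks and 204 bp (171 and 252 bp) for shared HSC peaks. In the HEP list it was 121 bp (101 and 151 bp) for specific and 181 bp (144 and 228 bp) for shared peaks. Hence the ratio of specific to shared was 0.67 in both lists. Width declined with score, however, and between peaks of the same 10% score step the difference was small. In whole lists HSC-specific peaks were narrower than shared ones in 9 of 10 steps, by at most 15 bp, and HEP-specific peaks in 8 of 10, by at most 15.5 bp. The exceptions stood among the strongest 30% of the lists, where there were few specific peaks. At equal length HSC-specific peaks were narrower in 8 steps and HEP-specific peaks in 6, and among the best 20000 peaks of either list specific peaks were narrower in 5. Counted by the full width of the specific peaks, HSC-specific peaks covered 2.47 Mb, or 22.8% of the DNA in the HSC list, and HEP-specific peaks 0.432 Mb, or 5.50% of that in the HEP list. Parts of shared peaks that reach beyond the peak of the other list are not included here.

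**Figure D2:**
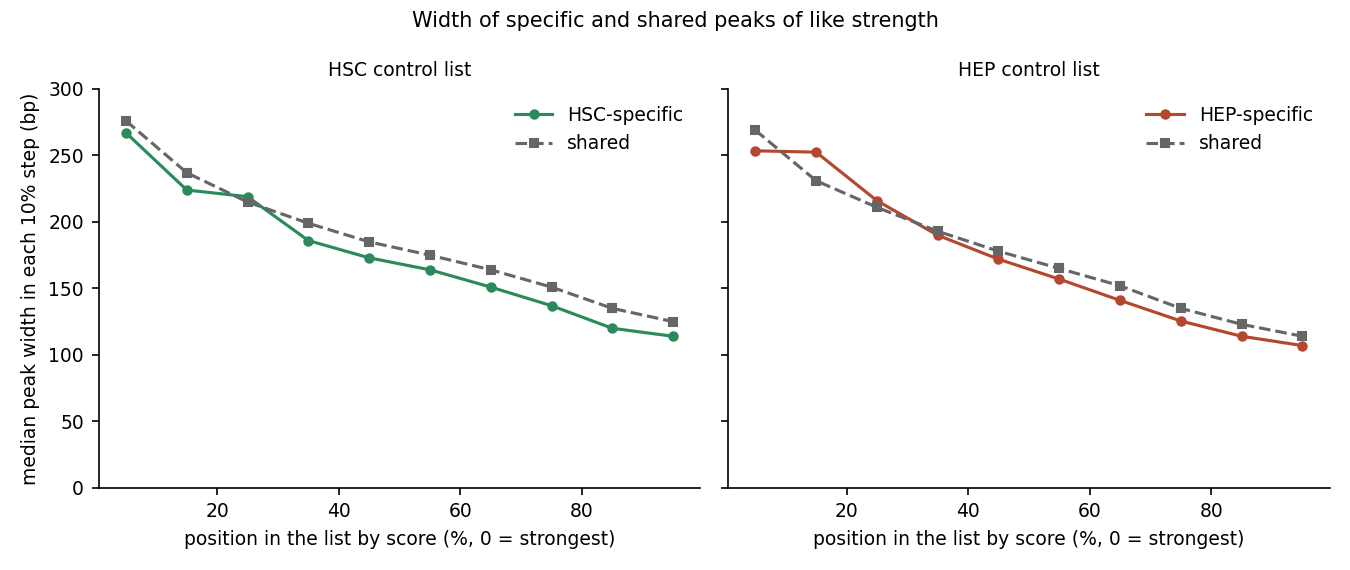
Median width in bp of specific peaks (circles) and shared peaks (squares) in steps of 10% of the HSC control list (left) and the HEP control list (right), ordered by score. In the last step specific and shared medians are 114 and 125 bp in the HSC list and 107 and 114 bp in the HEP list.

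Few specific peaks had a peak of the other list close by. A HEP peak lay within 500 bp of 9.19% of the HSC-specific peaks (8.76 to 9.63), and an HSC peak lay within 500 bp of 14.3% of the HEP-specific peaks (13.1 to 15.5). The median distance to the nearest peak of the other list was 7782 bp for HSC-specific and 5631 bp for HEP-specific peaks. Few peaks stood at the border of the rule. Only 6 HSC-specific peaks (median score 108.5) and 5 HEP-specific peaks (median score 119) missed a peak of the other list by less than 10 bp. Overlaps of 10 bp or less made 3 HSC peaks (median score 86) and 3 HEP peaks (median score 125) shared. The median overlap of a shared HSC peak was 175 bp, 89.2% of its width, and that of a shared HEP peak was 174 bp, 100% of its width.

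Among the shared sites, strength was ordered similarly in the 2 cell types. Each of 37915 HSC peaks overlapped exactly 1 HEP peak that overlapped no further HSC peak. The HSC peak was the wider member in 29253 of these pairs (77.2%), and the median widths were 204 bp in HSCs and 181 bp in HEPs. When the peaks of the pairs were ordered by score within each list, 88.8% stood within 25 percentage points of each other. The HSC peak stood nearer the top by more than 25 points in 2086 pairs, and the HEP peak in 2151 pairs. Shifts of more than 50 points were found in 115 pairs towards HSCs and in 168 towards HEPs. The positions given next are places in this order of paired peaks, not in the whole list. At chr21:1110614-1110878 the HSC peak scored 1645 (position 12.4%), while the HEP peak inside it scored 118 (position 93.7%). At chr6:14203264-14203401 the HSC peak scored 155 (position 94.5%), while the HEP peak around it scored 1387 (position 9.09%). Both pairs are counted as shared.

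Specific peaks occurred on every chromosome. In whole lists the HSC-specific share lay between 28.2% on chromosome 21 and 34.2% on chromosome 4, and the HEP-specific share between 6.06% on chromosome 12 and 10.4% on chromosome 4. With lists of equal length, the HSC share lay between 14.2% on chromosome 7 and 19.9% on chromosome 4, and the HEP share between 13.4% on chromosome 9 and 20.3% on chromosome 4. At that length HSCs had the larger share on 15 of 25 chromosomes. Because weak peaks were more often specific, each chromosome was also given the share that the scores of its peaks would lead to, that is, the average over its peaks of the specific share in their 10% score step. The observed HSC share differed from it by between -3.41 percentage points (chromosome 7) and 2.16 points (chromosome 14), and the HEP share by between -2.63 points (chromosome 9) and 3.03 points (chromosome 4).

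On chromosome 4, specific peaks of both kinds made up a larger share of the peaks in the second 50% of the chromosome, which lies in its repeat-rich long arm, although more of them lay in the first 50%. In the second 50%, 195 of 418 HSC peaks (46.7%; 41.9 to 51.4) and 60 of 281 HEP peaks (21.4%; 17.0 to 26.5) were specific, while the scores would give 39.5% and 10.6%. In the first 50%, 474 HSC peaks (30.8%) and 90 HEP peaks (7.79%) were specific. Within the outer 5% at each chromosome end, 32.8% of the HSC peaks (31.6 to 33.9) and 7.79% of the HEP peaks (7.04 to 8.60) were specific, against 30.7% and 7.76% along the rest of the chromosomes.

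**Figure D3:**
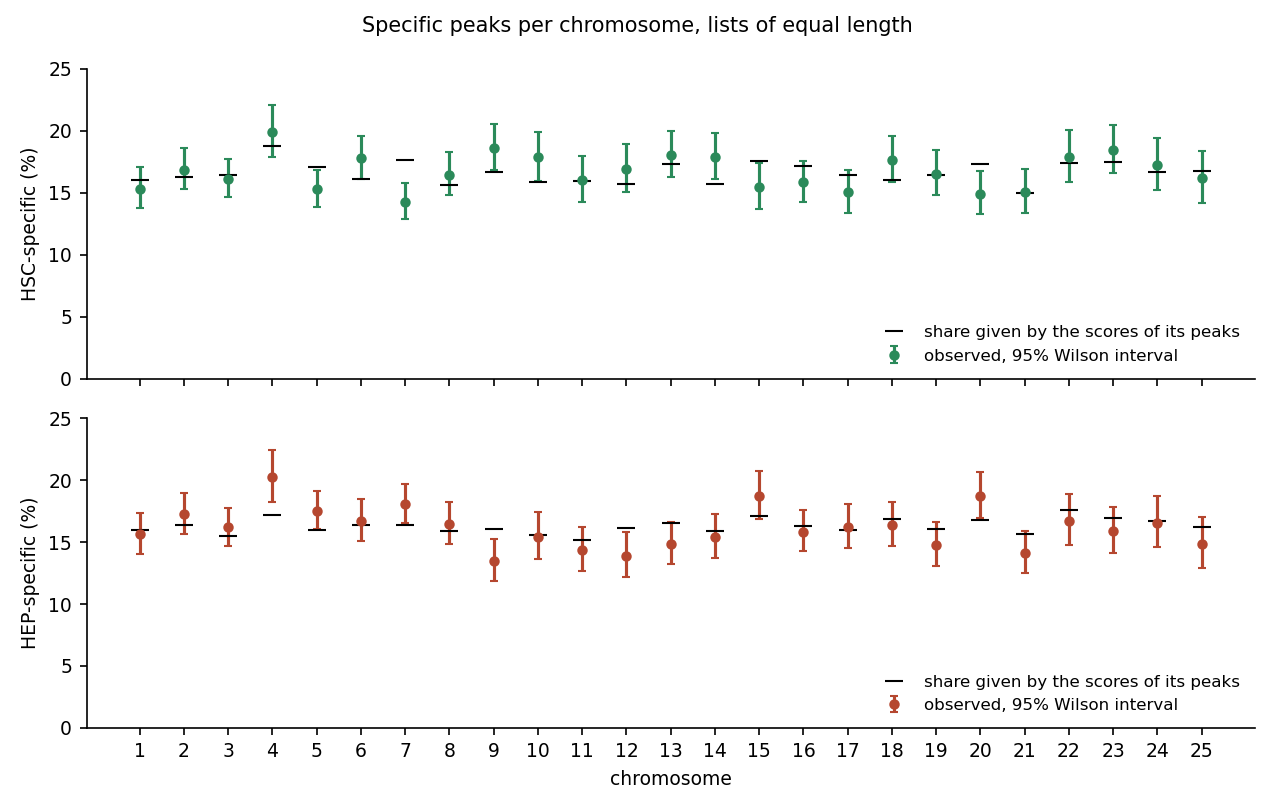
Percentage of peaks that are HSC-specific (top) and HEP-specific (bottom) on each of the 25 chromosomes when both lists have 41563 peaks; points are observed shares with Wilson 95% intervals over peaks, and black dashes are the shares that the scores of the peaks would give. Chromosome 4 is highest for both, at 19.9% and 20.3%.

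The peak that followed a specific peak was itself specific slightly more often than the peak that followed a shared one. After an HSC-specific peak, the next HSC peak along the chromosome was specific in 34.1% of cases (33.4 to 34.9), against 29.4% after a shared peak (29.0 to 29.9), a difference of 4.69 percentage points. The scores of the following peaks would give 32.7% and 30.1%. In HEPs the next peak was specific in 10.8% of cases after a specific peak (9.80 to 11.9) and in 7.51% after a shared one (7.25 to 7.78), a difference of 3.31 points, where scores would give 8.13% and 7.74%. With lists of equal length the differences were 2.89 points in HSCs (1.89 to 3.90) and 2.43 points in HEPs (1.43 to 3.43). There the scores would give 17.0% after specific and 16.5% after shared peaks in HSCs, and 17.1% and 16.1% in HEPs. The difference was smaller further along the chromosome, and at peak 10 it was 1.15 points in HSCs and 0.850 points in HEPs for whole lists. In whole lists the gap to the next peak was wider after a specific peak. Its median was 11623 bp after specific and 8954.5 bp after shared HSC peaks, and 15313 bp after specific and 11948 bp after shared HEP peaks. Both lists kept this order at equal length, but among the best 20000 HEP peaks it turned round, with 22067 bp after specific and 24594 bp after shared peaks.

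**Figure D4:**
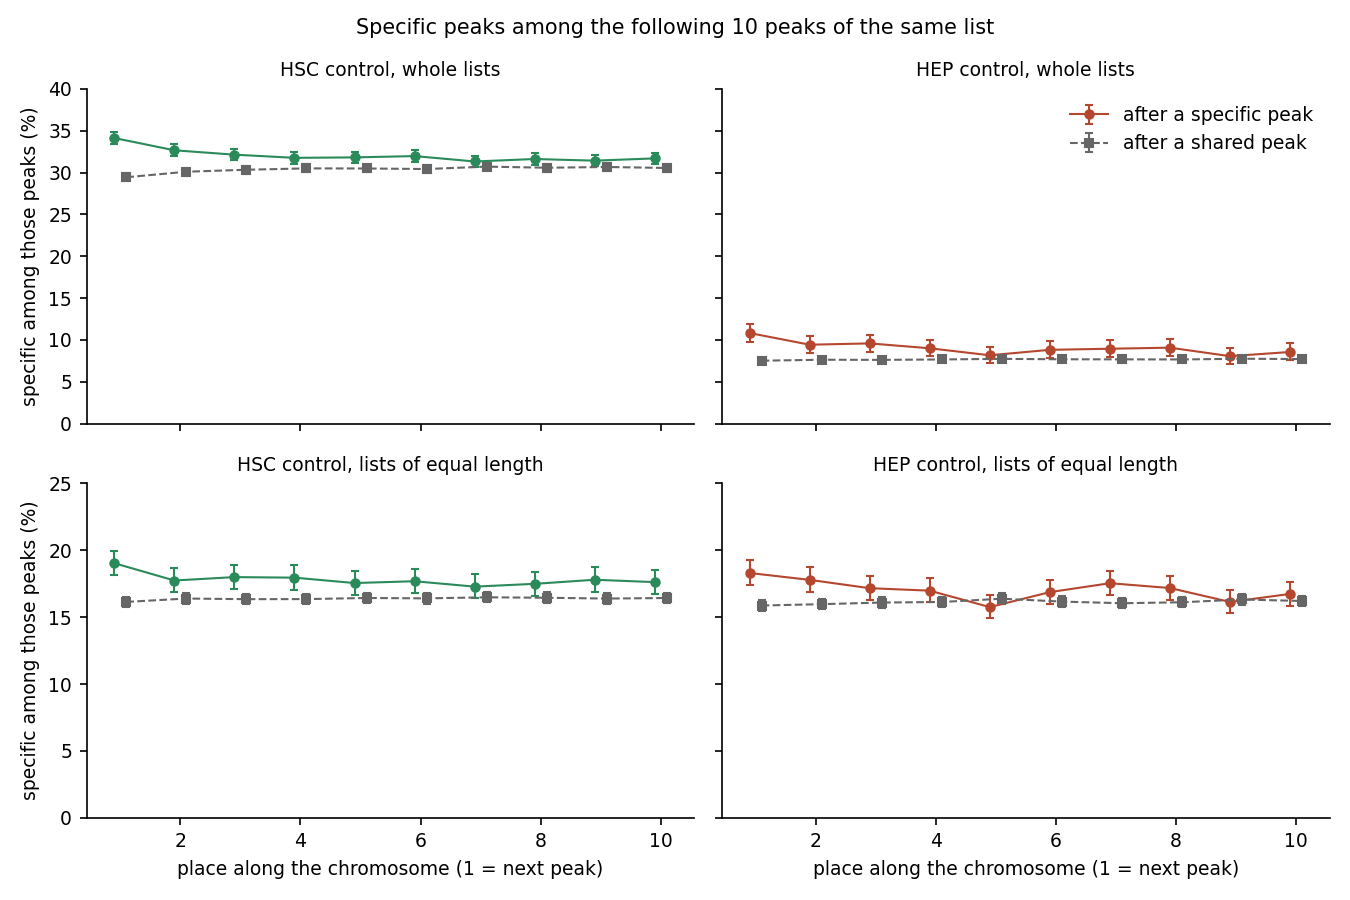
Percentage of specific peaks among the following peaks 1 to 10 of the same list, after a specific peak (circles) and after a shared peak (squares), for HSC (left) and HEP (right) control peaks in whole lists (top) and lists of equal length (bottom); bars are Wilson 95% intervals over peaks. The separation is widest at the next peak, 34.1% against 29.4% in HSCs and 10.8% against 7.51% in HEPs in whole lists.

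Most specific peaks stood alone or in short runs. In whole lists 43.9% of the HSC-specific peaks had a shared peak on either side, or a chromosome end, and so did 80.1% of the HEP-specific peaks. Of all peaks 30.9% were specific in the HSC list and 7.76% in the HEP list. Peaks that make up a smaller share of a list stand alone more often even in random order. How far the values here differ from a random order was not tested. Runs of at least 3 specific peaks held 4674 HSC-specific peaks in 1296 runs and 129 HEP-specific peaks in 37 runs. The longest HSC run was 11 peaks at chr22:6390960-6753394, and the longest HEP run was 7 peaks at chr18:38631869-38768556. With lists of equal length, where 16.6% of the HSC and 16.3% of the HEP peaks were specific, these differences were small. Then 65.9% of the HSC-specific and 67.2% of the HEP-specific peaks stood alone, 204 HSC and 190 HEP runs had at least 3 peaks, and the longest had 8 in both.

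Windows of 100 kb were then counted. The HSC windows with the most specific peaks were at chr7:44600001-44700000, where 10 of 16 HSC peaks were specific, and at chr16:36400001-36500000, where 10 of 17 were. HEPs had 8 and 9 peaks in these windows. A window at chr1:38200001-38300000 followed with 9 of 11 HSC peaks specific and only 2 HEP peaks, and 6 windows in all had 9. Of the HEP-specific peaks, which were fewer, at most 5 lay in 1 window, namely 5 of 10 HEP peaks at chr6:42400001-42500000 and 5 of 11 at chr18:38700001-38800000, and 14 windows had 4. In the window on chromosome 6, 3 of 8 HSC peaks were HSC-specific. With lists of equal length, at most 6 HSC-specific and at most 8 HEP-specific peaks lay in 1 window.

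The lists of the injured liver and of ECs were not used to define the specific peaks, and were searched for them next. In whole lists 61.2% of the HSC-specific peaks (60.4 to 61.9) recurred in HSC TAA and 35.3% (34.6 to 36.1) in HEP TAA. Of the HEP-specific peaks, 31.1% (29.5 to 32.7) were found in the HEP TAA list and 56.9% (55.2 to 58.6) in the HSC TAA list. Peaks that control HEPs had and control HSCs lacked were thus found more often among HSC than among HEP peaks of injured livers. The lists differed in length, with 61245 peaks for HSC TAA and 44649 for HEP TAA. With every list at 41563 peaks the specific peaks were defined anew, 6906 in HSCs and 6756 in HEPs. The shares at this length therefore cover different sets of peaks from those of the whole lists. Of the 6756, 3529 overlapped an HSC control peak of the whole list. The HSC-specific peaks recurred at 53.1% (51.9 to 54.3) in HSC TAA and at 46.1% (45.0 to 47.3) in HEP TAA. The HEP-specific peaks were then found at 38.2% (37.1 to 39.4) in the HEP TAA and at 39.7% (38.5 to 40.8) in the HSC TAA list. The same HEP-specific peaks were looked up in both lists. Of them 1013 were in HEP TAA and not in HSC TAA, and 1111 showed the opposite. For the best 20000 peaks of each list, with 3084 HSC-specific and 3055 HEP-specific peaks, all 4 values lay between 43.1% and 44.8%.

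The specific peaks were then counted by which of the HSC TAA and HEP TAA lists held them, whether or not an EC list did so too. In whole lists 5714 HSC-specific peaks (33.4%) were in the HSC TAA and not in the HEP TAA list, and 1302 (7.62%) showed the opposite. Both of these lists held 4736 (27.7%), and neither held 5335 (31.2%). Of the 5714, 65.8% were also in EC TAA and 25.2% in EC control. Of the HEP-specific peaks 226 (7.0%) were in the HEP TAA and not in the HSC TAA list, 1060 (32.8%) showed the opposite, 776 (24.0%) were in both and 1165 (36.1%) in neither. Of the 226, 39.4% were also in EC TAA and 33.2% in EC control. At equal length, 1508 HSC-specific peaks (21.8%) were in HSC TAA and not in HEP TAA, and 1027 (14.9%) showed the opposite. Of the HEP-specific peaks 1013 (15.0%) were then in HEP TAA and not in HSC TAA, and 1111 (16.4%) showed the opposite. For the best 20000 peaks, 572 HSC-specific peaks were in HSC TAA and not in HEP TAA, against 564 with the opposite, and 512 HEP-specific peaks were in HEP TAA and not in HSC TAA, against 563 with the opposite.

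Specific peaks of the second 25% of a list were found more often in the HSC TAA and HEP TAA lists than those of the weakest 25%. In the second 25% of the whole HSC list, 86.3% of the HSC-specific peaks recurred in HSC TAA and 69.7% in HEP TAA. In the weakest 25% these shares were 50.6% and 24.2%. Of the HEP-specific peaks in the second 25% of the HEP list, 61.4% were present in the HEP TAA list and 77.1% in the HSC TAA list. For the weakest 25% the shares were 25.1% and 50.4%. Among the 15 HEP-specific peaks of the strongest 25%, 12 were in the HEP TAA list and 10 in the HSC TAA list. In the EC control list the shares differed less. It held 17 of the 68 HSC-specific peaks in the strongest 25%, 41.5% of those in the second and 37.2% of those in the weakest, and 26.5% of the HEP-specific peaks in the second and 26.8% in the weakest.

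Shared peaks, which stood higher in the lists, were found at much higher rates. The HSC TAA list held 93.8% of them and the HEP TAA list 90.5%, counted over either control list. ECs showed the same contrast. The EC control list held 39.6% of the HSC-specific, 26.6% of the HEP-specific and 66.3% of the shared HSC peaks. For the EC TAA list these shares were 50.2%, 54.2% and 89.9%. The median position was 35.0% for shared and 79.7% for specific peaks in the HSC list, and 46.4% and 86.9% in the HEP list. In whole lists, HSC-specific peaks in the second 25% of the HSC list recurred at 86.3% in HSC TAA and 69.7% in HEP TAA. The EC lists held 41.5% (control) and 76.3% (TAA) of them. How far strength accounts for the contrast was not tested. Peaks in none of the 4 other lists numbered 2484 in HSCs (14.5% of the HSC-specific) and 655 in HEPs (20.3% of the HEP-specific), and these stood at median positions of 91.3% and 94.5%, near the end of their lists.

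**Figure D5:**
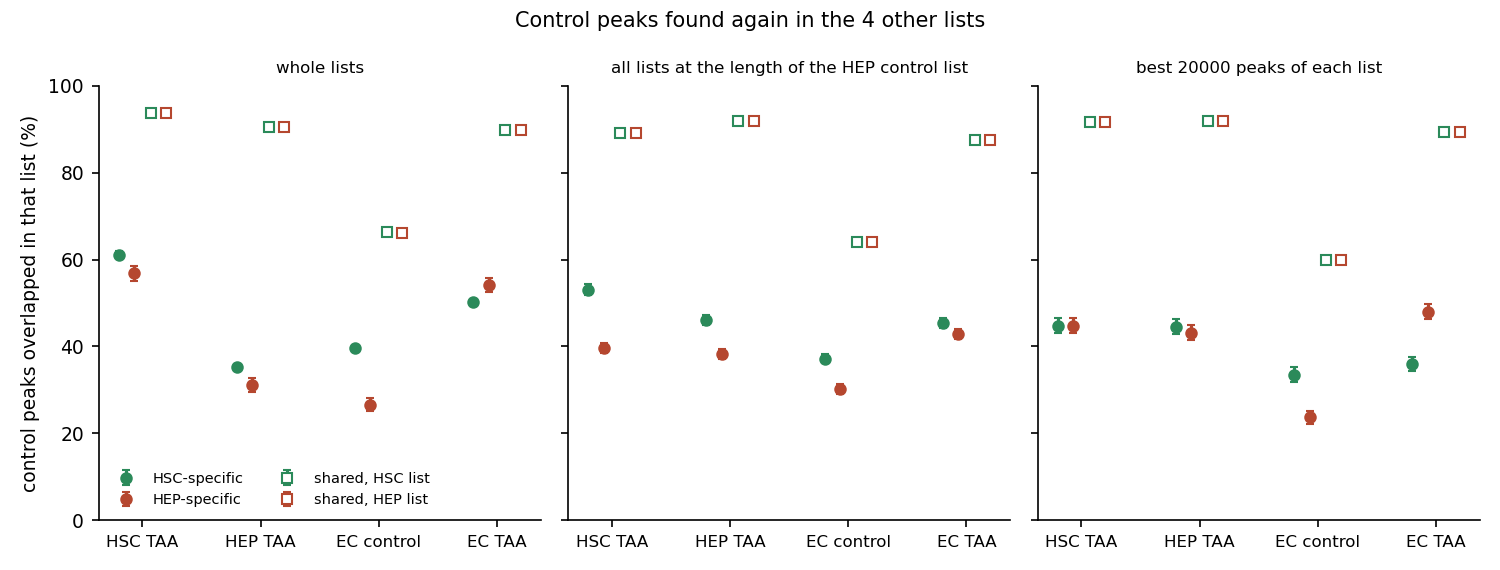
Percentage of HSC-specific, HEP-specific and shared control peaks that a peak overlaps in the HSC TAA, HEP TAA, EC control and EC TAA lists, for whole lists (left), lists of 41563 peaks (middle) and lists of 20000 peaks (right); bars are Wilson 95% intervals over peaks. In the right panel the 4 values for specific peaks in the HSC TAA and HEP TAA lists lie between 43.1% and 44.8%, and shared peaks lie above 90% in both.

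As a measure of scale, the share of control peaks without a partner was set beside the same share for the other lists at 41563 peaks. Of the HSC control peaks 16.6% had no partner in HEP control, 16.8% (16.5 to 17.2) none in HSC TAA, 15.7% (15.3 to 16.0) none in HEP TAA, 19.5% (19.1 to 19.9) none in EC TAA and 40.4% (39.9 to 40.8) none in EC control. Of the HEP control peaks 16.3% had none in HSC control, 16.9% (16.5 to 17.2) none in HEP TAA, 18.9% (18.5 to 19.3) none in HSC TAA, 19.8% (19.4 to 20.2) none in EC TAA and 41.5% (41.0 to 41.9) none in EC control. These comparisons share the control lists. At this length the number of control peaks absent from the other cell type was close to the number absent from the same cell type after TAA.

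Genes were named from a list of gene positions on GRCz11 that belongs to the study's annotation of peaks near gene starts. The portion used held 1507 genes of chromosomes 1, 10 and 11, of which 1464 had a symbol. It lists genes with an annotated peak near the start only, and was complete for both cell types on chromosome 1 alone (605 genes). Symbols are spelled as in the gene name table. An HSC-specific peak lay within 3 kb of the start of 145 of the 605 genes (24%), and a HEP-specific peak of 31 (5.12%). With lists of equal length, where specific peaks of both kinds are nearly equal in number by construction, the counts were 64 and 62 genes. Specific peaks were less often near a start than shared ones. On chromosome 1, 20.6% of the HSC-specific peaks (17.8 to 23.7) and 36.7% of the shared HSC peaks (34.5 to 39.0) lay within 3 kb of a listed start. In the HEP list the shares were 20.1% of the specific peaks (14.2 to 27.7) and 36.6% of the shared (34.4 to 39.0). Among the weaker 50% of the peaks the intervals of specific and shared overlapped, with 20.6% (17.7 to 23.9) and 24.8% (21.3 to 28.7) in HSCs and 21.3% (15.0 to 29.2) and 27.4% (24.4 to 30.6) in HEPs. The stronger 50% of the HSC list had 20.7% (12.3 to 32.8) for 58 specific and 42.0% (39.2 to 44.8) for shared peaks.

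The gene with the most HSC-specific peaks was AUTS2 (ENSDARG00000056427, chromosome 10), a large gene whose product acts in neurons in mammals and joins a Polycomb complex. Of 23 HSC peaks inside it or within 3 kb, 12 were specific, where 30.9% of all HSC peaks were, and HEPs had 11 peaks there, all shared. Its best specific peak, chr10:27725495-27725722 (score 738), recurred in the HSC TAA and EC TAA lists and in no HEP list. FAT1 (ENSDARG00000017591), a giant protocadherin of cell contacts, had 8 specific of 21 HSC peaks. SPPL3 (ENSDARG00000025220), an intramembrane protease, had 8 of 16, and PTBP3 (ENSDARG00000043757), a splicing regulator, had 8 of 11. SARDH (ENSDARG00000058102), the mitochondrial sarcosine dehydrogenase, had 7 of 10, and its best specific peak at chr10:10436205-10436368 (score 515) was found in the HSC TAA and not the HEP TAA list. TFEB (ENSDARG00000010794), a transcription factor of lysosomal genes, had 6 of 9, as did RASSF5 (ENSDARG00000070601), a Ras effector. Further genes had 5, among them ehbp1l1b, XXYLT1 and KAZN. For comparison, 749 of the 1507 genes (49.7%) had at least 1 HSC-specific peak, and 405 (26.9%) had one within 3 kb of the start, both counted in whole lists.

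No gene had more than 2 HEP-specific peaks, where 7.76% of all HEP peaks were specific, and 18 genes had 2. Among those with the fewest HEP peaks in all were KATNAL1, traip, FHL1, igf2bp2b, rgs12b, MPC2, c3a.3, mast3b and UVRAG. MPC2 (ENSDARG00000037679), a subunit of the mitochondrial pyruvate carrier, had 2 specific among 5 HEP peaks, and all 3 of its HSC peaks were shared. The complement gene c3a.3 (ENSDARG00000052207) had 2 specific of 5 HEP peaks and 3 specific of 6 HSC peaks. At least 1 HEP-specific peak was found at 183 of the 1507 genes (12.1%), and near the start of 69 (4.58%). The c3a genes are closely related copies, and whether reads were split between them was not tested.

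Among these genes, the strongest HSC-specific peaks found in the HSC TAA and not the HEP TAA list were the one in AUTS2 described above and one at chr10:25327887-25328077 (score 714), near the start of TMEM135 and inside CCT8, a chaperonin subunit. The peak at TMEM135 was found in the HSC lists alone. Next in this order were peaks inside SARDH (score 515) and NLGN1 (score 485), and 1 peak inside both VPS36 and proser1 (score 464). Then came a peak at chr1:8653691-8653861 (score 434) near the start of actb1, a cytoplasmic actin gene, which was found in both EC lists too. It was followed by peaks at traip (score 432), GAB1 (426), AGPAT3 (419), si:dkey-88p24.11 (414) and htr7b (410). After these, a peak at chr11:39119039-39119180 (score 402) lay near the starts of CDC42, a small GTPase that organises actin, and of ap5b1, and recurred in EC TAA. The strongest HEP-specific peak with the reverse pattern lay near the start of CRYAA, an alpha-crystallin gene, at chr1:29096656-29096827 (score 309), and was found in the HEP TAA and EC TAA lists. The next, at chr11:25502762-25502907 (score 169) near the start of tfe3b, stood at position 76.6% of its list. These peaks were picked by their pattern, and other strong specific peaks recurred in both the HSC TAA and the HEP TAA list. Examples were HSC-specific peaks at USP25 (score 734), FBXO8 (score 621) and sertad2a (score 607). The strongest HEP-specific peaks at listed genes, at trim2b (score 391) and STOML2 (score 329), did so too.

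Cell type markers could be checked in part. Of 25 HEP markers 6 had a position, and all 6 had peaks within 3 kb of the start in both lists. Positions were listed only for genes with an annotated peak near the start, so a marker without any such peak could not be counted. None of the 25 HSC or the 26 EC marker symbols matched a listed gene, so the label of the HSCs could not be checked against defining markers. Markers were sought by symbol, and one listed under another spelling could be missed. The listed gene ESAM (ENSDARG00000077039), whose symbol resembles the EC marker esama, was not counted. A HEP-specific peak lay inside ESAM (score 315) and recurred in the HSC TAA, HEP TAA and EC TAA lists, but not in EC control. The starts of the 6 hepatocyte markers with a position were open in sorted HSCs as well as in HEPs. The fibrinogen chains FGB, fga and FGG, the complement gene c3a.1, the plasma protein gene ambp and the urate oxidase gene uox had best HSC scores of 699, 1504, 1931, 1216, 1330 and 2491 at their starts. Their best HEP scores were 937, 1644, 1199, 881, 848 and 2207 in the same order. Scores cannot be compared between the lists, and the positions of these starts within each list are compared further below. None of the 6 had a HEP-specific peak near its start, and FGB had an HSC-specific one. Whether hepatocytes in the sorted HSC fraction contributed to these peaks was not tested.

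To compare strength at gene starts, the 1252 genes with a peak of both lists within 3 kb of the start were ordered by their best score in each cell type. The position of 1215 of them (97.0%) differed by no more than 25 percentage points. The HSC peak stood nearer the top by more than 25 points at 17 genes and the HEP peak at 20. The gene with the largest shift towards HEPs was tdo2b (ENSDARG00000023176), which encodes the tryptophan dioxygenase of hepatocytes, at position 83.9% in HSCs and 43.5% in HEPs. Among the 10 largest shifts towards HEPs were also the complement gene c3a.2 (83.6% in HSCs and 46.4% in HEPs), which shared its peaks with the listed gene zgc:65894, and FGB (65.8% and 35.1%). Other genes shifted more than FGB. They were a 5S_rRNA gene (50.8% in HSCs and 10.9% in HEPs), trim69 (91.9% and 55.1%), uqcc3 (83.0% and 50.8%), ELF2 (70.8% and 39.1%) and si:dkey-88p24.11 (70.3% and 39.5%). The fibrinogen gene fga stood at 31.9% in HSCs and 16.4% in HEPs. The 4 hepatocyte markers not named in this comparison differed by at most 5.27 points in either direction. Towards HSCs the largest shifts were at RBM39, a splicing factor gene (44.7% in HSCs and 85.1% in HEPs), the RNA methyltransferase gene NSUN3 (54.3% and 90.6%) and cntln (48.2% and 82.3%). The 10 largest also included DLC1 (32.3% and 60.3%), a GTPase-activating protein, and GALNT7 (55.0% and 87.9%). All of these are differences in strength at sites that were called in both lists.

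Few members of the other gene lists had a position. Of 29 matrix genes there were 2, both encoding chains of collagen VI, a product of mesenchymal cells. COL6A2 (ENSDARG00000061436) had a shared peak near its start with a score of 853 in HSCs and 390 in HEPs. Scores cannot be compared between lists. Among the 1252 genes ordered by best score at the start, COL6A2 stood at 56.5% in HSCs and 69.7% in HEPs, within 25 percentage points. The gene col6a1 (ENSDARG00000074908) had a single peak near its start, HEP-specific with a score of 166 at position 77.4% of the HEP list, and no HSC peak. Of 19 genes of sterol and fatty acid synthesis, which the study drew in part from RNA of these cells, 2 had a position. The starts of MSMO1, a sterol demethylating enzyme, and HMGCS1, which makes HMG-CoA, had scores of 3240 in HSCs, and of 3240 and 2927 in HEPs, and no specific peak. The HMGCS1 start stood at position 0.358% of the HSC list and 0.351% of the HEP list. Of 8 biliary markers only ANXA4 had a position, with 1 HSC-specific among 3 HSC peaks near its start. Of 16 immune markers, il1b had 2 HSC-specific peaks among its 4 HSC peaks, neither near the start, and 1 of 3 listed MFAP4 copies had an HSC-specific peak near the start (score 105), while the other two had shared peaks in both lists. None of the 18 liver transcription factors, 24 mesenchymal transcription factors, 14 retinoid genes or 8 red cell markers matched a listed gene by symbol.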

How the data were processed

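ATAC-seq peak lists of sorted zebrafish liver cells were used as deposited. According to the study's methods and the submitters' processing notes, the authors trimmed reads with cutadapt 1.18, aligned them to GRCz11 with Bowtie2 2.3.4.3, kept short fragments of nucleosome-free DNA, and shifted read ends for the offset of the transposase. The authors computed a p-value track for each of the 3 libraries of a group with MACS2 2.1.0.2, combined the tracks by Fisher's method and called peaks on the combined track. Peaks over low-complexity sequence were removed with bedtools 2.27.1. Column 5 of the deposited lists is the authors' score, a whole number that equals 3240 at most and 50 at least. It follows the adjusted p-value, and therefore depends on depth, which the files do not give. Sequencing one group more deeply can lengthen its list without any difference in chromatin. The deposited lists hold the summit position too, while columns 7 to 9 are 0 throughout. All peaks lie on the 25 numbered chromosomes, and no peaks of 1 list overlap each other.

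Groups were read from the sample labels. Overlaps of at least 1 bp were computed in Python 3.11 with the code tested on simulated intervals. Lists were shortened by score, with ties resolved by position along the genome. Of 118 HSC peaks with the score at which the HSC list was ended, 56 were kept. Wilson 95% intervals of shares treat peaks as independent and leave out variation among fish and libraries. The study gives fewer control fish than control libraries, so that independence of the 3 libraries is uncertain. The members, gene lists and measures were chosen with earlier results of these data known. Named were the 5 best-scored specific peaks of each kind, the 3 windows of 100 kb with the most specific peaks, members of the gene lists with a position, and the 10 genes with the most specific peaks, except that 1 gene of the HEP order is not reported here. Genes named for their best specific peak or for a shift in strength at the start were chosen after their values were seen. Coordinates count from 1. No genome of this build was used here, so no sequences are shown.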

Additional observations from a re-analysis of the deposited data

How the results depend on the processing

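Of 52 values obtained with other settings, 7 stayed inside the interval of the reported value and 45 moved outside it (for counts, beyond 1.5-fold). The 7 include the specific shares on the 25 numbered chromosomes alone (30.9% and 7.76%). These could not move, because all peaks lie on those chromosomes. The specific shares of 30.9% in HSCs and 7.76% in HEPs became 16.6% and 16.3% with lists at the length of the shorter list, 15.4% and 15.3% for the best 20000 peaks, and 15.6% and 15.5% for the best 10000. Setting the better 50% of one list against all peaks of the other gave 4.34% and 0.871%, and a score of at least 100 in both lists 30.4% and 6.98%. Overlap of at least 50% of both peaks gave 33.2% and 11.1%, the summit inside the other peak 31.5% and 8.22%, no other peak within 500 bp 28.1% and 6.65%, and counting all base pairs of a list that no peak of the other list covered, including the ends of shared peaks, 34.4% and 9.70%. The excess of specific peaks next to a specific peak was 4.69 points in HSCs and 3.31 in HEPs, without allowance for scores. It became 2.89 and 2.43 points at the shorter length, 3.84 and 2.06 for the best 20000 peaks, and 5.16 and 5.37 with overlap of 50%. HSC-specific peaks in the HSC TAA list moved to 53.1% and 44.8%, and HEP-specific peaks in the HEP TAA list to 38.2% and 43.1%, at the shorter length and for the best 20000 peaks. The specific peaks were defined anew at each length. Shorter lists hold fewer peaks by construction, and at equal length the HSC and HEP shares lie close together by construction. The cause of the other moves was not tested. No paired analysis was possible because each group has 1 list made from 3 libraries, so no library could be left out either. Depth limits every count of specific peaks: a weak peak missing from a list may have gone undetected, and its absence does not show closed chromatin.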
